A study of Mus musculus with 72 samples.

Results

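Large deletions at a Cas9-induced double-strand break (DSB) were followed in mouse neural progenitor cells by LAM-HTGTS, an assay in which a guide RNA cuts a known bait site, a primer beside it reads across the repaired end, and each read shows the genomic position, the prey, to which the bait end was joined. A junction was taken as a large deletion when the prey lay on the bait chromosome, in the orientation of the bait, and 10 kb to 1 Mb past the cut, so that joining removed the DNA in between. Members were thus chosen by the measured position and strand of the junction, and their distance range and orientation are the rule and not a result. The rule took 5377 of 593366 junctions (0.906%) in 60 libraries, of which 5204 came from Xrcc4/p53-deficient cells and 173 from wild-type cells.

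The Xrcc4/p53-deficient cells were neural progenitors derived from embryonic stem (ES) cells, and the wild-type cells were primary neural stem and progenitor cells, so cell source goes with genotype. All cells were transfected with a plasmid that encodes Cas9 and the guide and were cultured under treatment for 72 h and then 24 h. Xrcc4/p53-deficient cells received dimethyl sulfoxide (DMSO, the solvent), the Pol θ inhibitor ART558 (5 µM, then 2.5 µM), aphidicolin (Aph, 0.5 µM, then 0.25 µM) or both drugs. Wild-type cells received Aph or Aph plus ART558, with no DMSO or ART558 arm among the libraries used here. In Xrcc4/p53-deficient cells the bait lay on chromosome 6 (9 DMSO, 3 ART558, 1 Aph and 3 Aph plus ART558 libraries), chromosome 8 (3 libraries of each treatment), chromosome 12 (2 DMSO, 3 ART558, 2 Aph and 3 Aph plus ART558 libraries) or chromosome 14 (4 DMSO and 3 Aph libraries). In wild-type cells it lay on chromosome 6 (3 Aph and 4 Aph plus ART558 libraries) or chromosome 14 (4 libraries of each). The Xrcc4/p53-deficient chromosome 14 libraries and 7 of the chromosome 6 DMSO libraries lack the label theta collection that the others carry. They were treated as a separate experiment. It was taken to be the parental cells of the one on promoter and enhancer deletions, which their labels do not name.

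Xrcc4 is the partner of DNA ligase 4 in classical non-homologous end joining (NHEJ), the main route by which mammalian cells rejoin DSBs with little processing, and p53 loss lets NHEJ-deficient progenitors survive. Without NHEJ, broken ends are joined by alternative routes, among them theta-mediated end joining (TMEJ), in which Pol θ pairs short identical sequences at both ends (micro-homology), fills the gaps and can leave insertions copied from sequence nearby. ART558 blocks the polymerase activity of Pol θ, and Aph slows replicative DNA polymerases and causes replication stress.

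The guide targets fixed the position from which each deletion was measured. The 4 target sites in GRCm38/mm10 are printed 5′ to 3′ on the strand of the guide, with the protospacer-adjacent motif (PAM) in capitals. The first lies at chr6:70950106-70950125 (minus strand), the second at chr8:59477701-59477720 (minus strand), the third at chr12:12994038-12994057 (plus strand) and the fourth at chr14:83268830-83268849 (plus strand), PAM not counted.
Chromosome 6 guide site: gagggttggaaatgctcgtaTGG
Chromosome 8 guide site: gtcgaccatatgctaatcttAGG
Chromosome 12 guide site: attccgccaaccctcgagatAGG
Chromosome 14 guide site: ggcttagttatagtaggggcTGG
The chromosome 12 cut falls in the lincRNA gene Gm35208, and at the other 3 cuts the GENCODE annotation has no gene.

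The unbroken reference across each cut is given next, read in the direction of the primer, so that a junction can be set against it. Lower case marks the 25 bases kept on the primer side when no bait base is lost, and capitals mark the first 25 bases that every large deletion removes. The stretches lie at chr6:70950084-70950133 (minus strand), chr8:59477679-59477728, chr12:12994030-12994079 and chr14:83268822-83268871 (plus strand).
Chromosome 6 reference: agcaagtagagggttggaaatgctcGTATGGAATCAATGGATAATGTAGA
Chromosome 8 reference: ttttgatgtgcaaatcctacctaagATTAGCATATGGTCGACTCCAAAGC
Chromosome 12 reference: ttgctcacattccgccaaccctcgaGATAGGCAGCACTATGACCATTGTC
Chromosome 14 reference: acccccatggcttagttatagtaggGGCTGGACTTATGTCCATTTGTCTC

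Reads of members near the median length of their bait show the 3 kinds of joint counted here. Capitals mark bases shared by bait and prey in the micro-homology joints, the first prey bases in the direct joints, and inserted bases that belong to neither side in the insertion joints. The chromosome 6 joints lie at 70922777, 70922926 and 70922633, all on the minus strand, and the chromosome 8 joints at 59513298, 59513700 and 59514914, all on the plus strand.
Chromosome 6, deletion of 27331 bp with 2 bp of micro-homology and 3 bait bases lost: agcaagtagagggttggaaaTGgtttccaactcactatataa
Chromosome 6, deletion of 27182 bp by direct joining with 18 bait bases lost: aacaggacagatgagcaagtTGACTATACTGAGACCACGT
Chromosome 6, deletion of 27475 bp with a 3 bp insertion and 3 bait bases lost: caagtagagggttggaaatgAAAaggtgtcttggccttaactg
Chromosome 8, deletion of 35595 bp with 2 bp of micro-homology and 23 bait bases lost: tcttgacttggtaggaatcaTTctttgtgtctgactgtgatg
Chromosome 8, deletion of 35997 bp by direct joining with 31 bait bases lost: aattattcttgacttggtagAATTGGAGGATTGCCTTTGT
Chromosome 8, deletion of 37211 bp with a 25 bp insertion and 6 bait bases lost: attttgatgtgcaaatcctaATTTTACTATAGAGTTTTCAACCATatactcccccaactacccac
In the chromosome 6 reads with micro-homology and with an insertion, the bait sequence matches the reference up to the fourth base before the cut, and the prey follows from 27 kb away on the same strand.

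Libraries held 133 to 36999 junctions on chromosomes 1 to 19, X and Y (median 7737) and 0 to 422 large deletions (median 50.5). Measures of length, micro-homology, insertions and bait loss were taken only in the 48 libraries with 10 or more members, and 4 libraries held no member. The members lay at 4898 distinct positions, and 150 of these occurred in more than 1 library, with at most 5 junctions at 1 position. First occurrences of a position in its library made up 94.8% of the members in Xrcc4/p53-deficient cells and 72.8% in wild-type cells, whose 173 members rest on 126 positions. At the lower limit, 619 junctions lay 9 to 10 kb past the cut (20.03% with an insertion) and 379 members at 10 to 11 kb (17.2%), and at the upper limit 6 members lay in the last 50 kb and 14 junctions in the 50 kb after it. The study describes repeated libraries of the Xrcc4/p53-deficient cells as technical repeats in one place and as independent biological replicates in another, so p-values measure the spread between libraries, which may be technical.

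Without drug, large deletions were about 1 in 100 junctions of Xrcc4/p53-deficient cells at the chromosome 6 bait and fewer at the chromosome 8 and 14 baits. At the chromosome 6 bait the 9 DMSO libraries of both experiments gave 0.838% to 1.23% of junctions (mean 1.04%). The chromosome 8 libraries gave 0.456%, 0.554% and 0.680%, the chromosome 12 libraries 0.732% and 1.14%, and the chromosome 14 libraries 0.409%, 0.439%, 0.543% and 0.575%. All chromosome 8 and 14 libraries lay below all chromosome 6 libraries, which shared no sequencing run with DMSO libraries of another bait. Bait and run thus cannot be told apart in this order. Per 100 junctions on other chromosomes this order was not kept, with means of 5.47 at chromosome 6, 8.24 at chromosome 8, 5.79 at chromosome 12 and 5.32 at chromosome 14 (exact permutation p = 0.0227 for chromosome 6 against 8 and 0.876 against 14, adjusted p = 0.205 and 0.917). Of 54 tests over 6 pairs of baits and 9 measures, none passed after adjustment (exact permutation tests over libraries with Benjamini-Hochberg adjustment), and 10 had an unadjusted p under 0.05. The lowest adjusted p, 0.0614, belonged to the share at chromosome 6 against chromosome 8 (exact permutation p = 0.00455, the smallest possible with 9 and 3 libraries) and against chromosome 14. It also belonged to 2 measures of chromosome 6 against chromosome 14, the mean micro-homology (2.85 and 2.29 bp) and the percent of members with an insertion (14.2% and 22.9%).

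ART558 lowered the share of large deletions at all 3 baits tested, with and without Aph. At the chromosome 6 bait the 2 DMSO libraries of the same experiment gave 0.896% and 1.08%, and the 3 ART558 libraries 0.191%, 0.301% and 0.415%. At the chromosome 8 bait ART558 gave 0%, 0.253% and 0.422%, where the library at 0% held 133 junctions and its count allows a share of up to 2.26%. At the chromosome 12 bait it gave 0.224%, 0.269% and 0.295%. No ART558 library reached a DMSO library of its bait. With baits weighted equally, 7 DMSO libraries had 0.8286% and 9 ART558 libraries 0.263%, which differ by -0.565 percentage points (exact two-sided permutation of libraries inside each bait, p = 0.0005, the lowest this design allows; adjusted p = 0.0045 over the 54 tests of 9 measures in 6 comparisons).

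In cells also treated with Aph, the share fell from a mean of 1.52% (n = 6) to 0.696% (n = 9), a change of -0.826 (exact permutation p = 0.00125, the lowest this design allows; adjusted p = 0.0075). The chromosome 8 bait showed this most, with 1.79%, 1.87% and 1.99% in Aph and 0.211%, 0.622% and 0.725% in Aph plus ART558. At chromosome 12 the Aph libraries gave 1.22% and 1.40% and the combined treatment 0.316%, 0.452% and 0.587%. At chromosome 6 the single Aph library gave 1.37%, and the combined treatment gave 0.921%, 1.16% and 1.27%. The difference did not pass without the chromosome 8 bait (-0.559, exact permutation p = 0.025, the smallest possible there; adjusted p = 0.0735), although the libraries did not overlap. Both arms share a sequencing run only at chromosome 6, where the difference was -0.258 (exact permutation p = 0.5 with 1 against 3 libraries), so that at chromosomes 8 and 12 the treatment cannot be told apart from the run. ART558 and DMSO lay on separate runs at chromosome 8, and the runs of chromosomes 6 and 12, which hold both, gave -0.679 (exact permutation p = 0.01, the smallest possible there; adjusted p = 0.075). With each position counted once, the difference from DMSO was -1.24 (exact permutation, adjusted p = 0.0054).

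What ART558 did to large deletions depended on the junctions they were counted against. Against junctions on other chromosomes they fell from 6.23 to 0.634 per 100 without Aph and from 5.74 to 1.33 per 100 with Aph (exact permutation, adjusted p = 0.0045 and 0.0075). Without Aph, the runs that hold both arms gave -4.59, which was not called (exact permutation p = 0.01, adjusted p = 0.075). With Aph, the change of -4.40 was -1.86 without the chromosome 8 bait (exact permutation p = 0.025, the smallest possible there; adjusted p = 0.0735) and -1.13 within the shared run at chromosome 6. Against deletions of 200 bp to 10 kb in the same libraries no fall was found. At chromosome 6 there were 2.34 ± 0.0914 large deletions per 100 short ones in DMSO (SD, n = 2) and 2.33 ± 0.125 in ART558 (n = 3), at chromosome 8 there were 1.01 ± 0.209 and 1.57 ± 1.40 (n = 3 each), and at chromosome 12 there were 2.00 ± 0.505 (n = 2) and 2.34 ± 0.367 (n = 3). The mean difference was 0.300 per 100 (exact permutation p = 0.325, adjusted p = 0.444). In Aph-treated cells the ratio rose with ART558, from 8.03 (n = 1) to 17.8 ± 0.799 (n = 3) at chromosome 6, from 5.28 ± 0.349 to 7.77 ± 4.88 (n = 3 each) at chromosome 8, and from 5.73 ± 0.160 (n = 2) to 20.4 ± 6.23 (n = 3) at chromosome 12, a mean difference of 8.97 (exact permutation p = 0.005, adjusted p = 0.0225). This ratio was added after the data had been seen. Deletions of 200 bp to 10 kb themselves were 42.1% of junctions in DMSO, 13.1% in ART558, 17.1% in Aph and 6.30% in the combined treatment at the chromosome 6 bait, while junctions on other chromosomes were 21.5%, 46.3%, 40.3% and 50.3%.

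**Figure D1:**
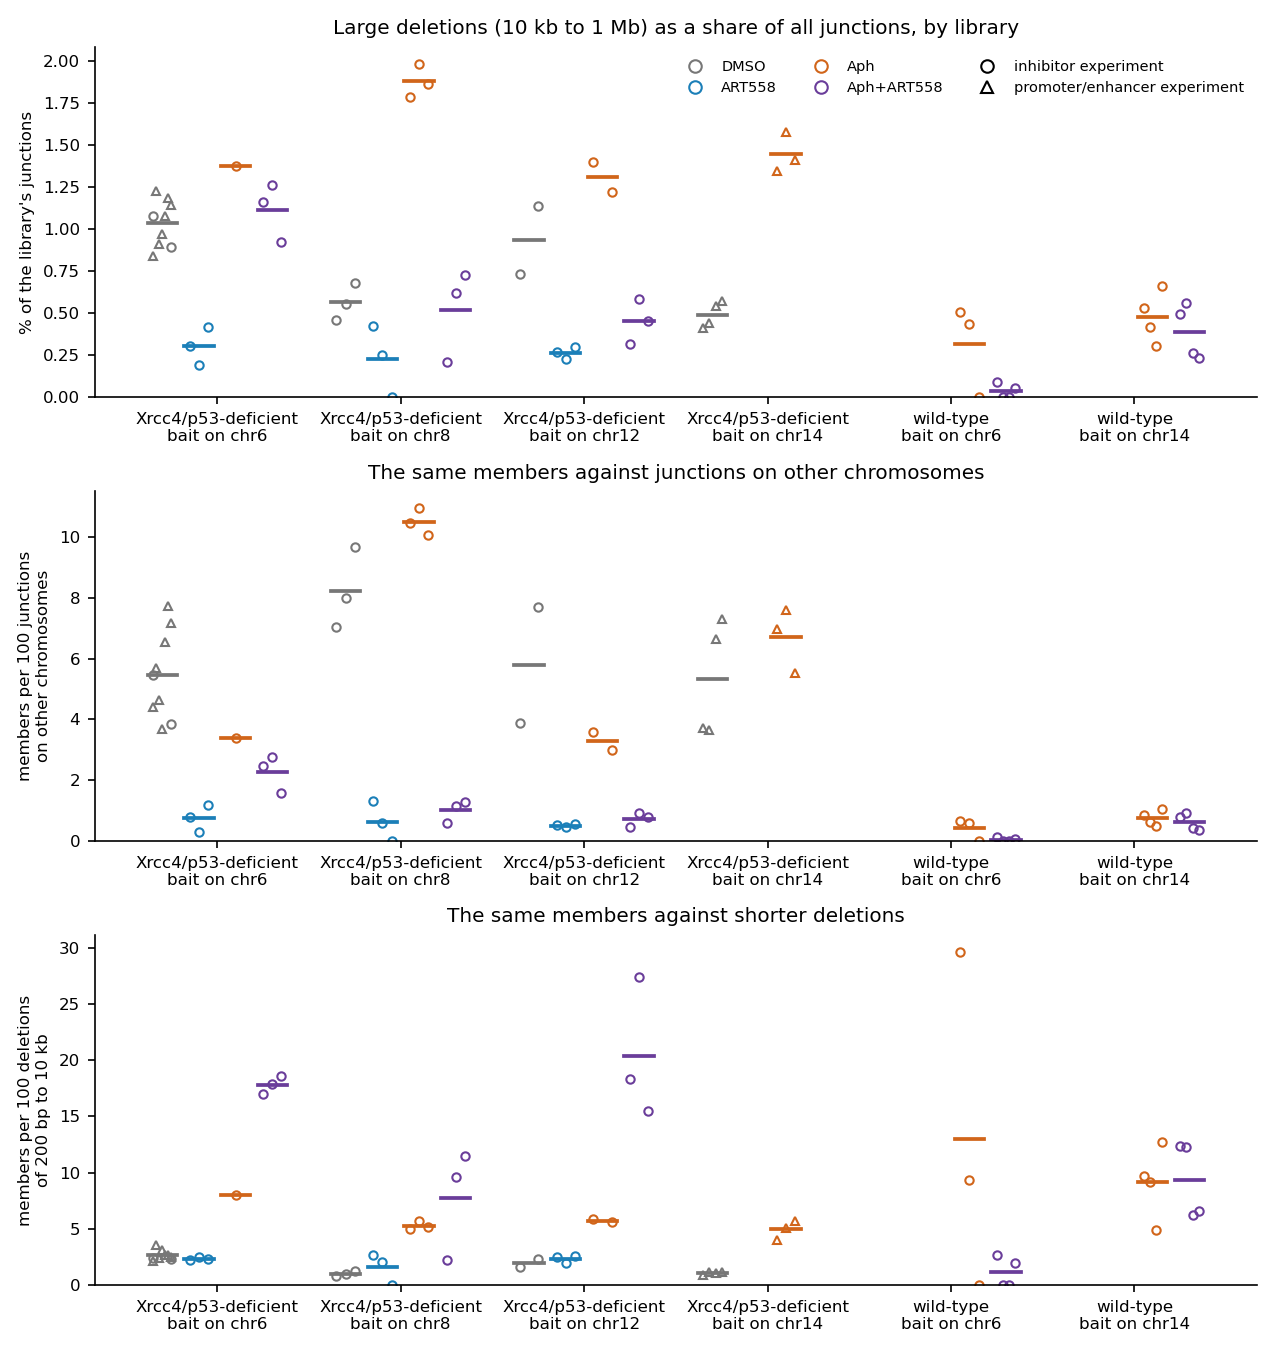
Large deletions in each library as percent of its junctions (top), per 100 junctions on other chromosomes (middle) and per 100 deletions of 200 bp to 10 kb (bottom), by cells, bait and treatment. Each point is 1 library, the shape gives the experiment and the bar is the mean of the libraries. ART558 libraries lie below DMSO libraries of the same bait in the top and middle panels, and Aph plus ART558 libraries of the chromosome 6 and 12 baits lie highest among Xrcc4/p53-deficient libraries in the bottom panel.

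Aph alone raised the share of large deletions at all 4 baits of Xrcc4/p53-deficient cells. The mean share was 0.744% in DMSO (n = 11) and 1.503% in Aph (n = 9), and no library of 1 treatment reached the other within a bait (difference 0.759, exact permutation p = 7.94e-05, the smallest possible; adjusted p = 0.00367). The ratio of means was 1.39 at chromosome 6, 3.34 at chromosome 8, 1.40 at chromosome 12 and 2.94 at chromosome 14, where the Aph libraries gave 1.35%, 1.41% and 1.58%. Junctions on other chromosomes rose alongside, from 6.81% to 17.9% of junctions at chromosome 8 and from 9.78% to 21.8% at chromosome 14, and per 100 of these the large deletions numbered 6.004 in DMSO and 5.98 in Aph (exact permutation p = 0.980). With junctions at least 10 kb from the cut as the total, the difference turned to -0.601 (exact permutation, adjusted p = 0.408), and with each position counted once it was 0.485 (adjusted p = 0.111). Per 100 deletions of 200 bp to 10 kb it stayed, at 4.39 (exact permutation p = 7.94e-05, adjusted p = 0.00429).

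With ART558 in both arms, Aph raised the share from 0.263% to 0.696% (n = 9 each, difference 0.432, exact permutation p = 0.0025, adjusted p = 0.0113). These libraries are the treated arms of both ART558 comparisons, so that this comparison is not independent of them. The ratio was 3.69 at chromosome 6, 2.31 at chromosome 8, where the libraries overlapped, and 1.72 at chromosome 12, where the treatments lay on separate runs. In the runs that hold both arms the call was lost (0.400, exact permutation, adjusted p = 0.245), as it was with junctions at least 10 kb from the cut as the total (0.538, adjusted p = 0.0556). Per 100 junctions on other chromosomes it rose from 0.634 to 1.33 (exact permutation p = 0.0138, adjusted p = 0.0437), a call that was lost in 11 of the 18 fits with 1 library left out.

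Wild-type cells held few large deletions. The chromosome 6 bait gave 8, 4 and 0 members in 1580, 923 and 1958 junctions of the 3 Aph libraries, and 2, 0, 0 and 1 in 2291, 1252, 1843 and 1922 junctions of the 4 Aph plus ART558 libraries. A count of 0 there allows a share of up to 0.153% in the Aph library and up to 0.240% and 0.163% in the others. The chromosome 14 bait gave 0.304%, 0.420%, 0.532% and 0.660% of junctions in Aph and 0.235%, 0.263%, 0.495% and 0.562% in Aph plus ART558, with overlapping libraries. Averaged over both baits the share was 0.396% (n = 7) and 0.212% (n = 8), and the difference of -0.184 did not pass (exact permutation p = 0.0653, adjusted p = 0.118). None of the 9 measures passed in this comparison. At chromosome 6, the bait that both genotypes have in this comparison, the change was -0.278 percentage points in wild-type and -0.258 in Xrcc4/p53-deficient cells.

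In the 3 combinations of bait and treatment present in both genotypes, Xrcc4/p53-deficient cells gave a mean share of 1.31% (n = 7) and wild-type cells 0.276% (n = 11), with no overlap in any of them (exact permutation p = 0.000204, the smallest possible; adjusted p = 0.00367). Against junctions on other chromosomes the values were 4.13 and 0.405 per 100 (adjusted p = 0.00367 by the same exact test). Against deletions of 200 bp to 10 kb they were not separated (difference 2.51 per 100, exact permutation p = 0.648). Both genotypes were sequenced on separate runs, so that genotype, cell source and run cannot be told apart.

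The number of members declined steeply with length. In DMSO, 1309 of 3127 members (41.9%) removed 10 to 20 kb, 804 removed 20 to 50 kb, 513 removed 50 to 100 kb, 302 removed 100 to 200 kb, 134 removed 200 to 500 kb and 65 (2.08%) removed 500 kb to 1 Mb. Per kb this is a fall from 41.9 to 0.0416 per 1000 members. A power law fitted to each library between both limits gave a mean exponent of 1.66 in DMSO and 1.48 in Aph (exact permutation p = 0.000694, adjusted p = 0.00536), a slower decline in Aph at all 4 baits. With a lower limit of 20 kb the difference of the exponents was -0.0678 (exact permutation, adjusted p = 0.305), and in the runs that hold both arms it was -0.163 (adjusted p = 0.05, not called). The median length rose from 31493 bp to 40754 bp without passing (exact permutation p = 0.02, adjusted p = 0.0568). Members of 100 kb or more were 501 of 3127 (16.02%) in DMSO and 359 of 1437 (24.98%) in Aph. These pools mix baits unevenly, with 2234 DMSO and 149 Aph members from chromosome 6. In the libraries tested, the means in DMSO and Aph were 14.5% and 18.8% at chromosome 6 and 20.8% and 24.6% at chromosome 8. They were 21.7% and 26.8% at chromosome 12 and 19.2% and 26.4% at chromosome 14.

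With ART558 alone the large deletions were shorter at each bait, at 18079 bp against 28996 bp in DMSO (n = 6 and 7), and the exponent was 2.14 against 1.67, but neither passed after adjustment (exact permutation p = 0.0583 and 0.0417, adjusted p = 0.112 and 0.0938). The chromosome 12 medians overlapped, with 16298, 19563 and 37237 bp in ART558 and 22173 and 30292 bp in DMSO. On top of Aph, the medians were 36955 bp without and 32041 bp with ART558 (exact permutation p = 0.28, adjusted p = 0.398).

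Wild-type members at the chromosome 14 bait showed another length profile. Of 76 members in Aph, 33 removed over 500 kb, 19 removed 200 to 500 kb, 16 removed 50 to 100 kb and none removed 100 to 200 kb. The 12 wild-type members in Aph at chromosome 6 lay lower, with 4 at 20 to 50 kb, 6 at 50 to 100 kb, 2 at 200 to 500 kb and none beyond, and a pooled median of 86056 bp against 479919 bp at chromosome 14. They rest on 4 and 2 distinct positions in 2 libraries. With ART558 added the order was opposite, with a pooled median of 331649 bp for 3 members at chromosome 6 and 261272 bp at chromosome 14. At the chromosome 14 bait the medians of the 4 Aph libraries were 200883, 340460, 484258 and 526730 bp, against 46577, 49564 and 60318 bp in Xrcc4/p53-deficient cells with the same bait and drug. The libraries did not overlap, and the exponents averaged 0.449 and 1.40 (exact permutation p = 0.0571 for the median and 0.0286 for the exponent, the smallest possible with 4 and 3 libraries; adjusted p = 0.112 and 0.0701). The 4 wild-type libraries held 10 to 24 members each, and repeated positions make up part of them.

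**Figure D2:**
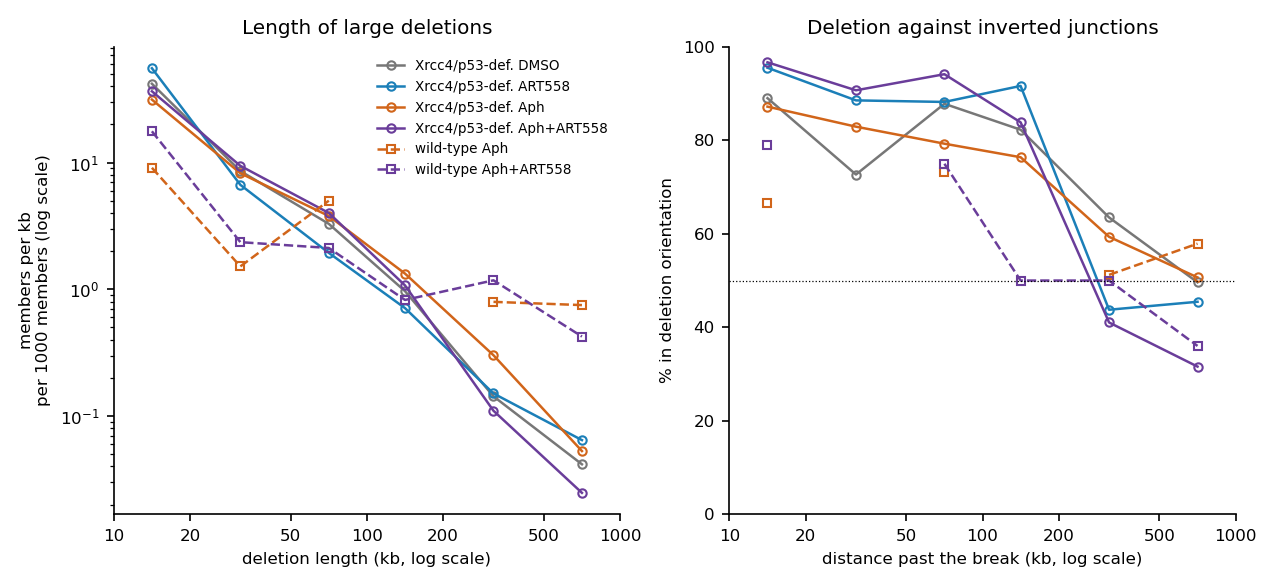
Left, members per kb per 1000 members of their group against deletion length, both axes on a log scale. Right, the percent of bait-chromosome junctions in the deletion orientation against distance past the break, with bins under 10 junctions left out and a dotted line at 50%. Libraries are pooled, and each point sits at the geometric middle of its bin. Xrcc4/p53-deficient lines fall steeply with length and reach about 50% or lower in the last bin, while wild-type lines, which rest mostly on the chromosome 14 bait, stay higher beyond 200 kb on the left.

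Joining to the same stretch of DNA in the opposite orientation gives an inverted junction, which served as a reference for distance from the break. In DMSO, 3127 deletions and 742 inverted junctions lay 10 kb to 1 Mb past the break, which gives 80.8% in deletion orientation. This share was 83.0% within 200 kb and 58.2% beyond. In Aph it was 78.4%, in ART558 85.6% and in the combined treatment 87.1%, and beyond 200 kb the combined treatment had 22 deletions and 36 inverted junctions. Over libraries, Aph lowered the share in deletion orientation from 85.1% to 77.1% (exact permutation p = 0.00347, adjusted p = 0.0144), and ART558 on top of Aph raised it from 76.6% to 86.6% without passing (exact permutation p = 0.0175, adjusted p = 0.0525). The first call was lost in 1 of 20 fits with 1 library left out (exact permutation, highest adjusted p = 0.0575) and in the runs that hold both arms (-7.48, adjusted p = 0.075). Only 10 DMSO and 9 Aph libraries hold this value, and leaving out the other DMSO library does not alter the difference.

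In wild-type cells the orientations were nearly even, with 88 deletions and 64 inverted junctions in Aph and 85 and 79 in Aph plus ART558. Within 200 kb the deletion orientation made up 62.96% and 68.5%, and beyond 200 kb, where most wild-type members lie, 55.1% and 43.6%, against 57.1% and 37.9% beyond 200 kb in Xrcc4/p53-deficient cells under the same treatments. Averaged over the shared combinations, deletions were 38.1% in wild-type and 80.8% in Xrcc4/p53-deficient cells (exact permutation p = 0.00714, adjusted p = 0.0257). The wild-type chromosome 6 values rest on 1 library per treatment, of 11 junctions (36.4%) and 10 junctions (2 of them deletions). With each position counted once the difference was 22.7 percentage points in place of 42.7 (exact permutation, adjusted p = 0.134). With an upper limit of 500 kb it was 24.5 (exact permutation, adjusted p = 0.213), with a minimum of 30 junctions 17.1 (adjusted p = 0.36), and without single libraries it ranged from 28.4 to 45.8 and was lost in 3 of 18 fits. Only 6 wild-type and 7 Xrcc4/p53-deficient libraries hold this value, and leaving out any other library does not alter the difference.

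Inverted junctions past the chromosome 6 cut held 1 dense site without a counterpart among the deletions. Of 718 inverted junctions, 151 lay 47 to 48 kb past the cut, at a median of 47644 bp, against 19 in the next fullest bin of 1 kb. They came from 14 libraries, and 140 were in DMSO, which gave 602 of the 718. The same bin held 13 deletions. The site lies in Eif2ak3, which encodes the stress kinase PERK. Without this bin the share in deletion orientation in DMSO was 83.8%.

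Short micro-homology was the usual signature of large deletions in Xrcc4/p53-deficient cells. Among members with 0 to 10 bp of micro-homology in DMSO, 6.88% ± 2.62 had none (direct joining), 13.9% ± 5.32 had 1 bp, 31.5% ± 5.01 had 2 bp, 23.3% ± 6.04 had 3 bp, 12.3% ± 3.95 had 4 bp and 12.1% ± 4.59 had 5 to 10 bp (SD, n = 17 libraries). Junctions of the same libraries on other chromosomes were joined directly in 14.2% ± 5.99, and the members lay lower in 17 of 17 libraries (exact sign-flip permutation p = 1.53e-05, the smallest possible; adjusted p = 0.000519 over 68 tests). Deletions of 200 bp to 10 kb were joined directly in 13.5%, above the members in 16 of 17 libraries (exact permutation p = 3.05e-05, adjusted p = 0.000692). Inverted junctions at the same distances had 7.08% (n = 13), a value not separated from the members' 6.78% in those libraries (exact permutation p = 0.845).

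Direct joining was also rarer at large deletions than on other chromosomes under the drugs. Members were joined directly in 7.17% in Aph against 22.0% on other chromosomes (lower in 9 of 9 libraries, exact permutation p = 0.00391, adjusted p = 0.0266), and in 9.60% against 32.6% in the combined treatment (8 of 8 libraries, exact permutation p = 0.00781, adjusted p = 0.0409). In ART558 alone they were joined directly in 12.8% ± 10.7 against 33.5% ± 4.08 (6 of 6 libraries, exact permutation p = 0.0313, the smallest possible; adjusted p = 0.133). Between treatments, no difference in direct joining of large deletions passed, with 7.40% in DMSO and 10.6% in ART558 averaged over baits (exact permutation p = 0.504) and 5.31% in Aph and 9.80% in the combined treatment (exact permutation p = 0.228). The ART558 libraries held 10 to 45 members, so that single libraries ranged from 0% to 28.1%.

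The mean micro-homology of members rose from 2.62 bp in DMSO to 2.89 bp in Aph, at each of the 4 baits (exact permutation p = 0.011, adjusted p = 0.037). This call was lost in 7 of 20 fits with 1 library left out, where only 10 DMSO and 9 Aph libraries hold a value. It was also lost with each position counted once (exact permutation, adjusted p = 0.103), with a lower limit of 20 kb (0.24), in shared runs (0.105) and with labels permuted over baits (0.133). Members had longer micro-homology than deletions of 200 bp to 10 kb both in DMSO (2.69 bp against 2.06 bp, higher in 16 of 17 libraries, exact permutation, adjusted p = 0.000778) and in Aph (2.83 bp against 2.43 bp, 9 of 9 libraries, exact permutation p = 0.00391, adjusted p = 0.0266).

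At the chromosome 14 bait, wild-type members in Aph were mostly joined directly or with 1 bp of micro-homology, while at chromosome 6 only 1 of 9 was joined directly. At chromosome 14 direct joining made up 40.0%, 45.0%, 46.2% and 65.0% of members, against 7.69%, 9.68% and 10.8% in Xrcc4/p53-deficient cells. All wild-type libraries lay above all Xrcc4/p53-deficient libraries, and the difference of -39.6 percentage points reached the smallest p possible (exact permutation p = 0.0286, adjusted p = 0.0701). The mean micro-homology was 1.38 bp and 2.70 bp (exact permutation p = 0.0286, adjusted p = 0.0701). Within the wild-type libraries, direct joining was higher at large deletions than on other chromosomes (49.0% ± 10.97 against 24.7% ± 2.06, higher in 4 of 4) and than at deletions of 200 bp to 10 kb (14.3%, 4 of 4), where 4 libraries allow no exact p under 0.125. Inverted junctions of the same distances had 43.5% against 43.7% for the members of those 3 libraries.

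**Figure D3:**
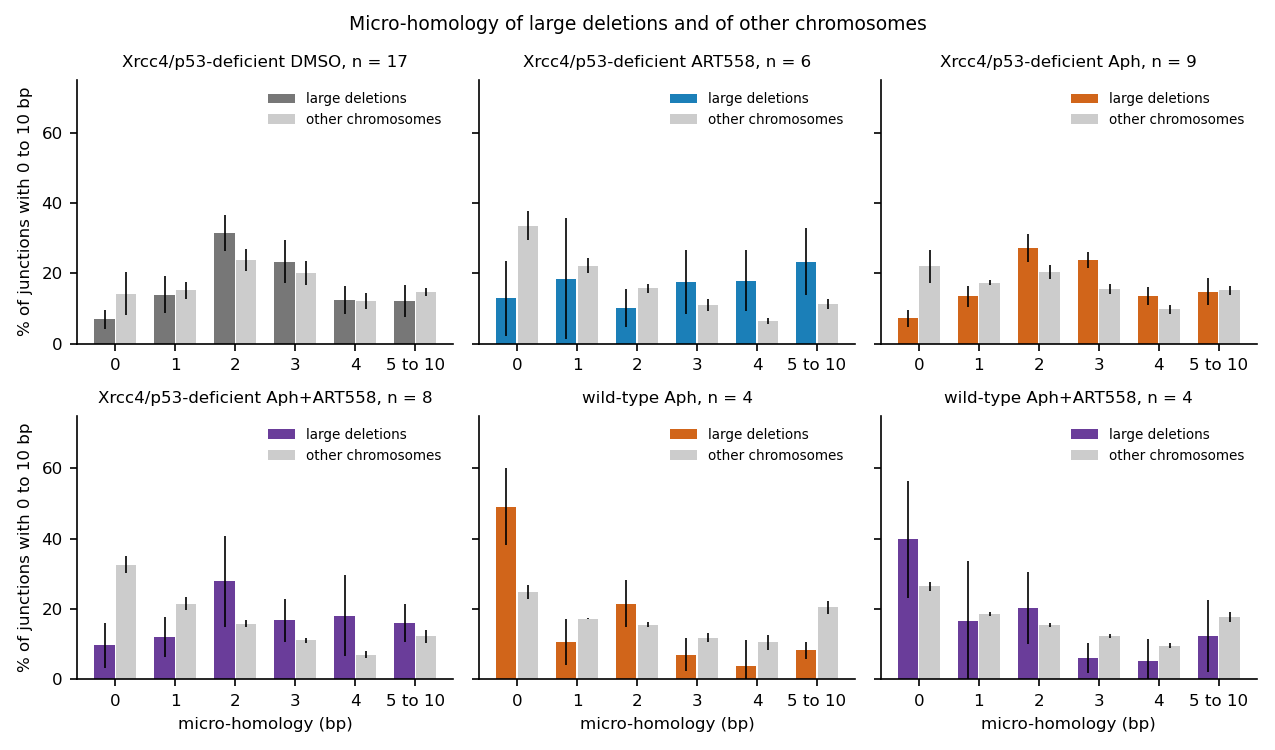
Percent of junctions by length of micro-homology, for large deletions (coloured) and junctions on other chromosomes (grey) of the same libraries, among junctions with 0 to 10 bp. Bars are means and lines SDs over the libraries with 10 or more members, n above each panel. Direct joining (0 bp) of large deletions is 6.88% to 12.8% in the 4 Xrcc4/p53-deficient panels and 39.7% and 49.0% in the wild-type panels.

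The share of large deletions with an insertion rose when ART558 was added to Aph. Insertions were present in 17.4% of members of the chromosome 6 Aph library and 40.5%, 42.6% and 51.8% of members with both drugs, in 10.6%, 14.2% and 18.2% against 41.2% and 41.5% at chromosome 8, and in 14.8% and 17.3% against 25%, 39.7% and 55% at chromosome 12. The groups did not overlap at any bait. The mean rose from 15.9% (n = 6) to 42.1% (n = 8), a difference of 26.1 (exact permutation p = 0.0025, the smallest possible; adjusted p = 0.0113). It was 25.7 without the chromosome 8 bait (exact permutation p = 0.025, the smallest possible there; adjusted p = 0.0735) and 27.5 within the shared sequencing run at chromosome 6 (exact permutation p = 0.25, the smallest possible there).

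ART558 without Aph gave 31.5% of members with an insertion against 18.2% in DMSO (n = 6 and 7, exact permutation p = 0.0542, adjusted p = 0.112). The chromosome 8 value is 1 library with 5 of 10 members, and without it the difference fell from 13.3 to 4.30 percentage points. The effect of ART558 was not shown to differ with and without Aph (fitted difference 14.95, 100000 permutations, p = 0.0199, adjusted p = 0.0651). Aph alone gave 15.7% against 19.3% in DMSO (exact permutation p = 0.0353, adjusted p = 0.0828). In wild-type cells insertions were at 15.3% in Aph and 13.0% with ART558 added (n = 4 each, exact permutation p = 0.714), and the effect of ART558 differed from that in Xrcc4/p53-deficient cells by -28.2 percentage points (100000 permutations, p = 0.00028, adjusted p = 0.00168). The wild-type values come from the chromosome 14 bait and the others from chromosomes 6, 8 and 12, so that genotype and bait cannot be told apart here.

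Counted against all junctions, the Aph and combined groups differed mainly in joints without an insertion at the chromosome 8 and 12 baits. At the chromosome 8 bait there were 26.8 ± 6.66 large deletions with an insertion per 10000 junctions in Aph and 25.6 ± 4.39 with ART558 added, and 161 ± 14.2 and 26.3 ± 23.03 without one (SD, n = 3 each). At chromosome 12 the values with an insertion were 20.9 ± 0.315 (n = 2) and 19.4 ± 12.2 (n = 3), and without one 110 ± 13.0 and 25.8 ± 1.85. At chromosome 6 the single Aph library had 24.0 with and 113 without an insertion, and the combined treatment 49.6 ± 3.80 and 62.1 ± 15.4 (n = 3). Without Aph, the DMSO and ART558 libraries at chromosome 6 had 17.0 ± 5.22 and 6.71 ± 4.96 with an insertion and 81.6 ± 7.53 and 23.5 ± 6.25 without one (n = 2 and 3). At chromosome 8 they had 10.6 ± 2.87 and 9.14 ± 10.8 with an insertion and 45.8 ± 8.72 and 13.3 ± 11.6 without one (n = 3 each), and at chromosome 12 17.8 ± 6.23 and 5.57 ± 3.88 with and 75.9 ± 22.7 and 20.7 ± 0.278 without (n = 2 and 3). These rates were not tested on their own.

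Large deletions of the combined treatment also had more insertions than junctions on other chromosomes of the same libraries, at 42.2% against 17.4% in 8 of 8 libraries (exact permutation p = 0.00781, the smallest possible; adjusted p = 0.0409). With a minimum of 30 members, this call and that for direct joining in the combined treatment were lost (exact permutation, adjusted p = 0.0577 for both). In DMSO the values were 17.0% and 18.7% (exact permutation p = 0.319, n = 17), and deletions of 200 bp to 10 kb had 24.2% (lower at large deletions in 15 of 17 libraries, exact permutation p = 0.000183, adjusted p = 0.00208). With each position counted once, that last difference was -0.636 percentage points (exact permutation, adjusted p = 0.777). Deletions of 200 bp to 10 kb of the combined treatment had 37.7%, not separated from the 42.2% of large deletions (exact permutation p = 0.352).

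**Figure D4:**
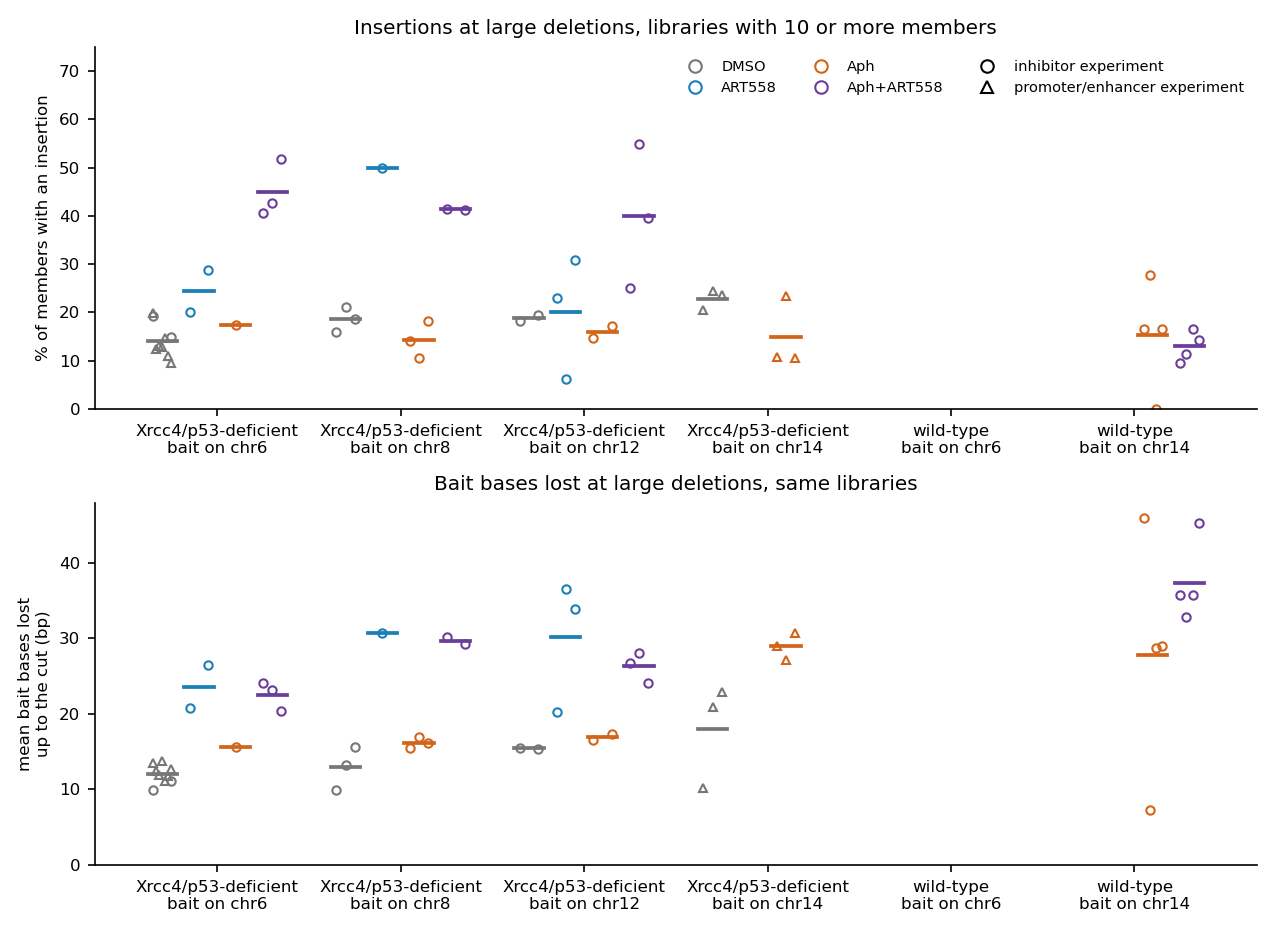
Percent of large deletions with an insertion (top) and mean bait bases lost up to the cut (bottom) in each library with 10 or more members. Points are libraries, shapes the experiment and bars the means. In Xrcc4/p53-deficient cells, libraries with Aph plus ART558 hold 25% to 55% with an insertion and lie above all Aph libraries of their bait in both panels.

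Long insertions followed the same order in the pooled counts, which were not tested. Insertions of 10 bp or more made up 91 of 3127 members (2.91%) in DMSO, 6 of 155 (3.87%) in ART558, 26 of 1437 (1.81%) in Aph and 65 of 485 (13.4%) in the combined treatment, and the longest in each of these groups had 23 to 30 bp. In the combined treatment 4 insertions had 30 bp and none was longer. Whether longer ones were filtered out before deposition was not tested. The median insertion was 3 bp in DMSO and Aph and 6 bp in the combined treatment. TMEJ is known for insertions copied from the broken ends, so each insertion of 10 bp or more was searched as a whole, on both strands, in the reference within 500 bp of the bait break. In DMSO 31 of 91 (34.1%) were found there, in 12 of 17 libraries, and in Aph 7 of 26 (26.9%). None was found among 6 in ART558 and none among 65 in the combined treatment, where a count of 0 allows a share of up to 4.62%.

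Over libraries with such insertions, the share found whole was 43.0% in DMSO and 0% in ART558 (n = 7 and 5, exact permutation p = 0.0208, adjusted p = 0.0417 over 4 tests). The ART558 values rest on 6 insertions in all, 1 or 2 in each of 5 libraries, for which a count of 0 allows a pooled share of up to 50%. In the combined treatment against Aph the share was 0% against 27.8% (n = 8 and 6, exact permutation p = 0.2, the smallest possible), where the Aph value comes from the chromosome 8 bait alone, with 4 of 5 insertions, and the chromosome 6 and 12 baits had none in Aph either. This search was added after the data had been seen. Shorter copies were also counted: a stretch of 8 bp or more that matches the reference within 50 bp of the break was found in 47 of 91 insertions in DMSO, 9 of 26 in Aph, 1 of 6 in ART558 and 27 of 65 in the combined treatment. Over libraries, this share was 60.5% in DMSO and 8.33% in ART558 (exact permutation p = 0.0208, adjusted p = 0.0417), where the ART558 value rests on 1 of the same 6 insertions. With Aph it was 30.6% without and 42.8% with ART558 (exact permutation p = 0.43).

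Inserted sequences at the chromosome 6 and 12 baits are printed with the copied bases in capitals. The DMSO examples are the longest insertions found whole. Those of the combined treatment, taken from all its insertions, have the longest copied stretch. The copies lie at chr6:70950077-70950100, chr6:70950085-70950100, chr12:12994021-12994043 and chr12:12994000-12994014, at 8, 8, 11 and 40 bp from the cut.
Chromosome 6, DMSO, deletion of 166404 bp, 24 of 24 bp copied in inverted orientation: TCTAATTTCTACATTATCCATTGA
Chromosome 6, Aph plus ART558, deletion of 11907 bp, 16 of 19 bp copied in bait orientation: tTCAATGGATAATGTAGta
Chromosome 12, DMSO, deletion of 157678 bp, 23 of 23 bp copied in inverted orientation: CGGAATGTGAGCAATGTGAGATT
Chromosome 12, Aph plus ART558, deletion of 59885 bp, 15 of 30 bp copied in bait orientation: aCGTCTGTTTGGTGCAatgtggaggcttaa
By the way they were chosen, the DMSO examples are whole copies. In the combined treatment, bases that match nothing at that place flank the copied stretch. The examples were picked by different rules and do not compare the treatments.

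**Figure D5:**
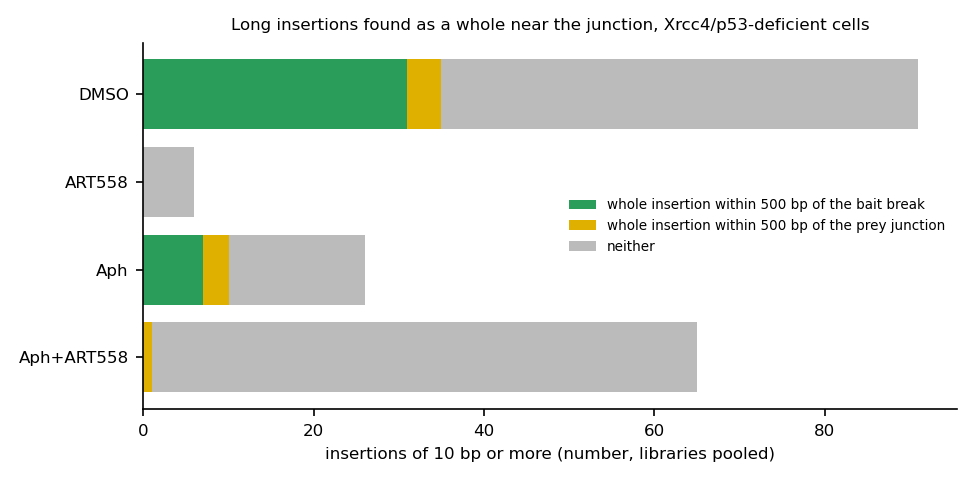
Insertions of 10 bp or more at large deletions of Xrcc4/p53-deficient cells, libraries pooled, by whether the whole insertion occurs in the reference within 500 bp of the bait break, only within 500 bp of the prey junction, or in neither. Of 91 insertions in DMSO 31 occur near the bait break, and of 65 in the combined treatment none does.

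The bait end was shortened more under ART558. Large deletions lost a mean of 9.86 and 11.1 bait bases up to the cut in the chromosome 6 DMSO libraries of the inhibitor experiment and 20.7 and 26.4 in the ART558 libraries, 9.94, 13.2 and 15.6 against 30.7 at chromosome 8, and 15.3 and 15.5 against 20.3, 33.8 and 36.5 at chromosome 12. No library overlapped with the other treatment. The mean rose from 12.9 to 28.2 bp (n = 7 and 6, exact permutation p = 0.00417, the smallest possible; adjusted p = 0.0161). Without the single chromosome 8 library the call was lost (13.9 bp, exact permutation, adjusted p = 0.0818). On top of Aph, ART558 raised it from 16.3 to 26.1 bp, again without overlap (n = 6 and 8, exact permutation p = 0.0025, the smallest possible; adjusted p = 0.0113). That call was lost without the chromosome 8 bait (8.10 bp, exact permutation p = 0.025, the smallest possible there; adjusted p = 0.0735), and the shared run at chromosome 6 gave 6.88 bp (exact permutation p = 0.25, the smallest possible there). Aph alone raised it from 14.2 to 19.4 bp (n = 10 and 9, exact permutation p = 0.000278, adjusted p = 0.00375), with the greatest rise at chromosome 14, from 18.0 to 28.9 bp. With labels permuted over all baits that call was lost (6.08 bp, permutation, adjusted p = 0.0688).

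Losses of over 20 bp occurred in 18.996% of members in DMSO, 31.2% in Aph, 56.1% in ART558 and 53.2% in the combined treatment, and losses of at most 5 bp in 33.3%, 19.3%, 10.97% and 13.4%. These percentages pool baits unevenly, since chromosome 6 gave 2234 of the 3127 DMSO members but 149 of the 1437 Aph members. Large deletions lost fewer bait bases than junctions on other chromosomes of the same libraries in DMSO (13.6 against 23.4 bp, 17 of 17 libraries, exact permutation p = 1.53e-05, adjusted p = 0.000519) and in Aph (20.5 against 38.6 bp, 9 of 9, exact permutation p = 0.00391, adjusted p = 0.0266). Wild-type members spread widely, with no loss at all in 27.3% of members in Aph and losses of over 20 bp in 38.6%. The 4 wild-type Aph libraries at chromosome 14 had means of 7.33, 28.7, 28.9 and 46.0 bp, and the 4 with ART558 had 32.7, 35.7, 35.7 and 45.3 bp (exact permutation p = 0.314).

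The far ends of the deletions fell in few genes, and the annotation has few protein-coding genes past the cuts. Past the chromosome 6 cut, 622 of 2724 members (22.8%) ended in Eif2ak3, 44.9 to 105.6 kb away, 122 in Tex37 and 21 in Rpia, which encodes an enzyme of the pentose phosphate pathway. Past the chromosome 12 cut, 82 of 1133 members (7.24%) ended in Nbas, which encodes a factor of retrograde vesicle transport, and 13 in Ddx1, which encodes an RNA helicase. Gm10283 is the only protein-coding gene in the annotation that reaches into the 1 Mb past the chromosome 8 cut, and none of 831 members ended in it. Past the chromosome 14 cut the annotation has no protein-coding gene within 1 Mb.

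Eif2ak3 held 492 of the 2234 chromosome 6 members in DMSO, 7 of 69 in ART558, 45 of 149 in Aph and 67 of 257 in the combined treatment, at 598 distinct positions in 18 libraries, together with 10 and 1 in wild-type cells. Nbas held 24 of the 548 chromosome 12 members in DMSO, 3 of 68 in ART558, 47 of 395 in Aph and 8 of 122 in the combined treatment, at 74 positions. Inverted junctions in Nbas numbered 58. The length range of 200 to 500 kb, which overlaps the gene, held 34 of the 548 members in DMSO and 57 of the 395 in Aph. Whether the gene differs from its distance range was not tested. Beyond 100 kb, the fullest windows of 100 kb at every bait were those at 100 to 200 and 200 to 300 kb. They held 236 and 56 members at chromosome 6, 112 and 33 at chromosome 8, 135 and 42 at chromosome 12, and 80 and 36 at chromosome 14. Aph gave 78 of the 112 members at 100 to 200 kb at chromosome 8, where it gave 505 of all 831 members, and 58 of the 80 at chromosome 14, where it gave 388 of all 689.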

How the data were processed

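LAM-HTGTS junctions were analysed from 60 libraries. Per the study's methods the authors demultiplexed and trimmed reads with the HTGTS pipeline, which aligns with Bowtie2 (build GRCm38/mm10) and filters the junctions. The deposited files, another kind of value than counts or intensities, list for each junction its coordinates, strand and the read positions of bait and prey, without normalization. One incomplete line was left out.

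Cuts were placed 3 bases from the PAM. Micro-homology is the overlap of bait and prey in the read (0 to 10 bp), an insertion is a gap between them, and bait loss runs from the bait end to the cut. Shares used junctions on chromosomes 1 to 19, X and Y. Since reads carry no molecular identifiers and may be copies of 1 molecule, limits for counts of 0 (3 counts of the total) cover counting error only. Group means were tested by exact permutation of libraries inside each bait (two-sided), classes of junctions by exact sign-flip permutation within libraries, and differences of effects by 100000 permutations of residuals, all with p-values adjusted by Benjamini and Hochberg and called at 0.05. The permutation test inside baits and the power law fit were checked on simulated data. The sign-flip test was checked on a fixed set of numbers, and the permutation of residuals was not checked. Genes named are the 3 protein-coding genes (GENCODE) with the most members of each bait. Printed reads are those nearest the median length. Python 3.11.15, NumPy 2.4.6, pandas 2.3.3, SciPy 1.17.1 and Matplotlib 3.10.9 were used.

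Members, measures and lists were chosen with earlier results of these data known. Alternatives were other length limits, totals and minimums, each position counted once, other DMSO libraries, labels permuted over baits, shared sequencing runs, replicate numbers as blocks, and each library left out. The chromosome 8 bait left out, the dense inverted site left out, short deletions as the total and the search for copied insertions were added after seeing the data.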

Additional observations from a re-analysis of the deposited data

Results flagged for a closer look

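The effect of ART558 on top of Aph differed between wild-type and Xrcc4/p53-deficient cells in 3 measures of large deletions (100000 permutations of residuals). For the share of junctions, the change was -0.184 percentage points in wild-type and -0.826 in Xrcc4/p53-deficient cells, a fitted difference of 0.770 (permutation, adjusted p = 0.00036). Per 100 junctions on other chromosomes, the changes were -0.246 and -4.40, a fitted difference of 5.04 (permutation, adjusted p = 0.00036). For insertions, the changes were -2.30 and 26.1 percentage points, a fitted difference of -28.2 (permutation, adjusted p = 0.00168). The starting level in wild-type cells, 0.396% of junctions and 0.584 per 100, was below the size of the Xrcc4/p53-deficient changes, so a fall of that size was not possible there and the first 2 differences do not compare the effects in proportion. As ratios of the share in Aph plus ART558 to that in Aph, wild-type cells had 0.111 at chromosome 6 and 0.812 at chromosome 14, and Xrcc4/p53-deficient cells 0.812 at chromosome 6, 0.276 at chromosome 8 and 0.344 at chromosome 12. The 0.111 rests on 3 members in Aph plus ART558 and 12 in Aph. At chromosome 6, the bait present in both, the share changed by -0.278 in wild-type and by -0.258 in Xrcc4/p53-deficient cells, and the number per 100 junctions on other chromosomes by -0.367 and -1.13. Wild-type insertions come from chromosome 14 alone. Genotype, cell source, sequencing run and bait cannot be told apart in these differences.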

How the results depend on the processing

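Of 498 values of 84 results under 18 alternatives, 411 kept their direction and their side of the threshold, 53 kept the direction and lost the call, 11 gained one and 23 changed sign. With 1 library left out, 582 of 639 values kept both, among them fits that left out a library without a value of the measure. Values are given as the second group minus the first, in percentage points for shares, direct joining and insertions, and in bp for lengths. The cause of a change was not tested. Depth limits the wild-type and ART558 groups most, where libraries hold up to 45 members.

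With deletions of 200 bp to 10 kb as the total, the share changed by 0.300 for ART558 against DMSO and by 8.97 for ART558 on top of Aph, both opposite in sign, and by 2.51 between genotypes (no longer called). With junctions at least 10 kb away as the total, Aph against DMSO changed sign (-0.601) and Aph on top of ART558 was 0.538 (not called). With each position counted once, Aph against DMSO gave 0.485 for the share (not called) and 0.0321 per 100 junctions on other chromosomes (sign changed), and the difference of the ART558 effect on direct joining between genotypes was -24.0 (called).

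With a lower limit of 20 kb, Aph against DMSO gave 0.707 per 100 junctions on other chromosomes, and members minus inverted junctions in DMSO 1.53 for direct joining, both with changed sign. With an upper limit of 500 kb, signs changed for the median length in wild-type cells (52974), insertions between genotypes (4.14) and members minus inverted junctions in DMSO (0.00592 for insertions), and Aph against DMSO was called for insertions (-4.13) and length (9388). With insertions of at least 3 bp, signs changed in wild-type cells (5.30) and between genotypes (4.89), and Aph against DMSO was called (-4.10). The mean log10 length (0.101) and the added chromosome 6 DMSO libraries (10405) called the longer deletions in Aph.

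With a minimum of 30 members, direct joining of members minus inverted junctions in DMSO was 1.17. Without a minimum, signs changed for the median length of ART558 on top of Aph (1927) and in wild-type cells (136174) and for insertions between genotypes (4.02), and calls were gained for the length in Aph (10932), insertions for Aph on top of ART558 (22.7) and the length between genotypes (-264130). With labels permuted over all baits, Aph against DMSO changed sign for direct joining (0.0269) and members per 100 junctions on other chromosomes (0.769), the genotypes changed sign for insertions (12.9), and direct joining (-39.8) and length (-347466) were called between genotypes. Without the chromosome 8 bait, ART558 on top of Aph gave -0.559 for the share and 25.7 for insertions, neither called.

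In the sequencing runs that hold both arms, ART558 against DMSO gave -0.679 and Aph on top of ART558 0.400 for the share, ART558 on top of Aph gave -0.258 for the share and 27.5 for insertions (none called), and Aph against DMSO 0.124 per 100 junctions on other chromosomes (sign changed).

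Whether replicate numbers of the labels pair the libraries cannot be told from 3 to 9 pairs per comparison. Correlations of same-numbered libraries ranged from -0.873 to 0.815. With the numbers as a replicate block none of the 17 called differences between groups passed. For the share this was set by the number of pairs in 4 of the 5 called comparisons, whose p was the smallest possible (0.0156, 0.0312, 0.00391 and 0.0156). The share changed by -0.554 for ART558 against DMSO, by -1.003 for ART558 on top of Aph, by 0.883 for Aph against DMSO, by 0.432 for Aph on top of ART558 and by 1.03 between genotypes, and insertions by 24.97 for ART558 on top of Aph. Under the block, signs changed for direct joining in ART558 against DMSO (-1.61) and Aph against DMSO (0.497), members per 100 junctions on other chromosomes in Aph against DMSO (0.656) and insertions between genotypes (0.0935).

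With 1 library left out, results that changed a call or sign ranged as follows. ART558 against DMSO ranged from 4.30 to 15.6 for insertions, -13061 to -8120 for length and -0.121 to 7.50 for direct joining. Aph against DMSO ranged from -5.02 to -3.11 for insertions, -1.46 to 0.508 for direct joining, -0.501 to 0.457 per 100 junctions on other chromosomes and 6951 to 11712 for length. Aph on top of ART558 ranged from -6.87 to 2.52 for direct joining, 8.06 to 20.2 for insertions and 6737 to 17952 for length. Wild-type cells ranged from -7.39 to 1.87 for insertions and -0.263 to -0.136 for the share, and the genotypes from -5.46 to 3.80 for insertions.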
